A study of Mus musculus with 36 samples.

Results

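Livers taken at Zeitgeber time 12 (ZT12), the hour of lights off, were compared between mice on a high fat diet and mice on normal chow. The members are the 6 arrays labelled with that time, 3 per diet, of 36 arrays in all. The labels alone set which arrays belong, but earlier results of these data were known when this part was chosen. The high fat diet group had eaten a diet with 60% of its calories from fat for 10 weeks, and the chow group had eaten normal chow for the same 10 weeks. Both groups were C57BL/6J mice, an inbred laboratory strain, were 16 weeks old at harvest, and lived in a cycle with 12 h of light. The other 30 arrays hold the same diets at ZT0, ZT4, ZT8, ZT16 and ZT20, with 3 arrays per diet and time. Whole liver RNA was hybridised to Affymetrix gene arrays, 1 array per sample, and carries no allele or agent besides the diet. Neither the sex of the animals nor the way samples of a group were separated is in the labels, so a p-value here measures only the spread between samples, which may be technical.

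The liver clock is a transcriptional loop. ARNTL (also called BMAL1) and CLOCK drive the Per, Cry and Nr1d genes, whose products repress that drive, and clock output genes such as Dbp follow. Mice eat mostly in the dark, so lights off lies between the resting and the feeding phase, when liver genes of fatty acid use, bile acid synthesis and protein synthesis are known to change level. A high fat diet is known to fill hepatocytes with lipid droplets and to engage PPARA, the receptor that turns on fatty acid oxidation.

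Levels are log2(intensity + 16), where intensity is the deposited value, and a difference is high fat diet minus chow on that scale, so that a difference of 1 is a 2-fold change of a bright gene and an understated one of a dim gene. Tests came from limma on all 36 arrays and 13956 genes, with calls at a Benjamini-Hochberg adjusted p under 0.05. Medians of the 6 arrays lay between 79.2 and 88.9 intensity units, and arrays of 1 group at ZT12 correlated at 0.984 to 0.992. The liver label was borne out by its markers. The albumin gene Alb lay between 13.48 and 13.60 on high fat diet and between 13.46 and 13.66 on chow. Of 20 tested hepatocyte identity genes 0 were called at ZT12 (median difference -0.06), where 5.44% of all genes were called. The adipocyte gene Adipoq, the bile duct gene Krt19 and the B cell gene Cd79a were too dim to be tested. In whole liver, fewer cells of a type and less RNA per cell cannot be told apart.

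At ZT12 759 genes (5.44%) differed between the diets, with 345 (2.47%) higher and 414 (2.97%) lower on high fat diet. The median size of a called difference was 0.48, and 80 called genes (0.573%) differed at least 2-fold, of which 46 were higher and 34 lower. The median over all tested genes was 0.003. Median centring of the arrays moved that median to -0.05 and the calls to 183 higher and 435 lower, so the balance of directions depends on the scaling. The count also depends on single arrays: it was 453 and 454 without high fat diet array 2 or 3, and 487 and 291 without chow array 1 or 2. All 3 high fat diet arrays lay above all 3 chow arrays for 1630 tested genes (11.7%) and below them for 1808 (13.0%).

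**Figure D1:**
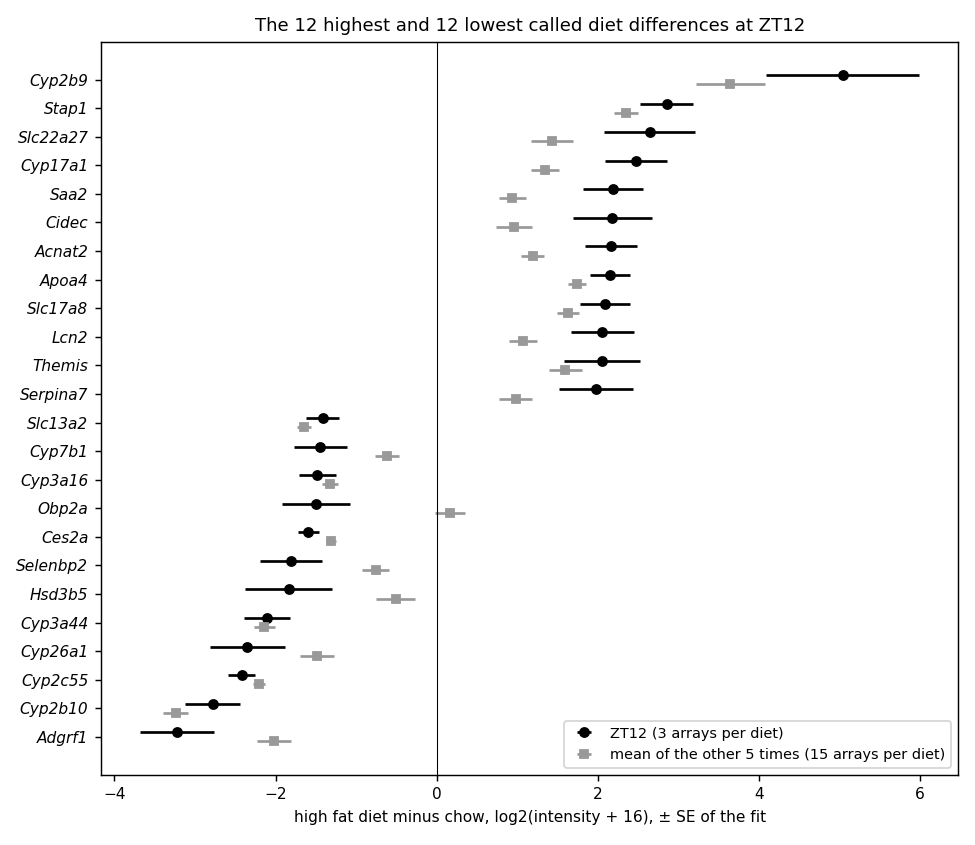
The 12 highest and 12 lowest called differences at ZT12, high fat diet minus chow in log2(intensity + 16), as black circles with the standard error of the fit, above the mean difference at the other 5 times as grey squares. All but Obp2a have grey squares on the same side of 0 as the black circle.

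Cyp2b9, a cytochrome P450 that is higher in female than male mouse liver, showed the highest difference. It had 11.87, 11.79 and 11.31 on high fat diet, against 5.70, 6.40 and 7.75 on chow, a difference of 5.04 ± 0.95 (SE, limma adjusted p = 0.00127). The 3 chow arrays spread over more of the scale than the high fat diet arrays. The groups did not overlap, which follows in part from choosing called genes with the highest differences (11.7% of all tested genes separated in this direction). Stap1, a signalling adaptor, had 7.95, 8.49 and 8.44 on high fat diet and 5.60, 5.27 and 5.46 on chow (2.85 ± 0.33). The organic anion transporter gene Slc22a27 had 11.86, 11.83 and 11.52 on high fat diet and 9.23, 8.98 and 9.07 on chow (2.64 ± 0.57). Both were dim or moderate on chow and tight within each diet. Cyp17a1, a steroid hydroxylase, differed by 2.47 ± 0.39 and Slc17a8, a glutamate transporter, by 2.09 ± 0.31.

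Genes of lipid handling and of the acute phase were also in this top group. Cidec, a lipid droplet protein that promotes large droplets, had 8.22, 9.06 and 9.09 on high fat diet, against 6.67, 6.63 and 6.53 on chow (2.18 ± 0.49). Apoa4, an apolipoprotein of triglyceride-rich particles, had 11.97, 12.47 and 12.94 on high fat diet and 10.13, 10.29 and 10.49 on chow (2.16 ± 0.25). Acnat2, an acyl-CoA amino acid acyltransferase, differed by 2.16 ± 0.32. The acute phase gene Saa2 had 9.35, 10.37 and 9.58 on high fat diet and 7.77, 7.42 and 7.56 on chow (2.18 ± 0.37). Lcn2, which binds iron carriers of bacteria, had 9.10, 10.17 and 8.95 on high fat diet and 7.28, 7.55 and 7.22 on chow (2.06 ± 0.39). High fat diet array 2 was the highest for both acute phase genes, and neither lost its call without it. Themis, known from T cell selection, differed by 2.06 ± 0.47 and lost its call without high fat diet array 2 or chow array 2, with an adjusted p of up to 0.0604. Serpina7, a thyroxine carrier, differed by 1.97 ± 0.46 and lost its call without chow array 2 (adjusted p = 0.069).

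Adgrf1, an adhesion receptor, showed the lowest difference at ZT12. It had 5.60, 5.56 and 5.63 on high fat diet, against 8.44, 9.24 and 8.76 on chow, a difference of -3.22 ± 0.46 (SE, limma adjusted p = 3.77e-05). The high fat diet arrays lay below 6.11, the level that a gene's mean over all arrays had to pass to be tested, so the difference is an understated one. Cytochrome P450 genes of drug metabolism came next. Cyp2b10, the classic target of the xenobiotic receptor CAR, had 6.62, 6.42 and 5.85 on high fat diet and 9.37, 8.94 and 8.92 on chow (-2.78 ± 0.34). Cyp2c55 differed by -2.42 ± 0.17, Cyp3a44 by -2.11 ± 0.28 and Cyp3a16 by -1.48 ± 0.23. None overlapped between diets, which follows in part from choosing called genes with the lowest differences (13.0% of all tested genes separated in this direction). Cyp26a1, which degrades retinoic acid, had 6.20, 5.36 and 5.25 on high fat diet and 7.51, 7.51 and 8.84 on chow (-2.35 ± 0.46). Probe sets of the Cyp2b, Cyp2c, Cyp3a and Ces2 families can share signal between near-identical members, so single members of these families are uncertain.

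The other 6 of the lowest 12 include genes of steroid, bile acid and citrate handling. Selenbp2, a selenium-binding protein, had 10.47, 10.92 and 10.47 on high fat diet and 12.24, 12.61 and 12.42 on chow (-1.81 ± 0.38). The carboxylesterase gene Ces2a differed by -1.60 ± 0.13 and the citrate transporter gene Slc13a2 by -1.41 ± 0.21. Cyp7b1, an oxysterol hydroxylase of the alternative bile acid pathway, had 10.38, 10.57 and 10.50 on high fat diet and 11.54, 12.29 and 11.96 on chow (-1.45 ± 0.33), and lost its call without chow array 2 (adjusted p = 0.0686). Hsd3b5, a male-biased steroid dehydrogenase, differed by -1.84 ± 0.54 (adjusted p = 0.0398) and lost its call without any 1 of the 6 arrays, with differences from -2.01 to -1.68. Obp2a, an odorant-binding lipocalin, had 6.08, 6.68 and 5.59 on high fat diet and 7.54, 7.92 and 7.38 on chow (-1.50 ± 0.42, adjusted p = 0.0297). Its call was lost without high fat diet array 1 or 3 or chow array 1 or 2, with adjusted p up to 0.164, and its difference had the other sign in the mean of the other times (0.17).

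How far the ZT12 differences belong to that time was asked against the 30 arrays of the other 5 times. Those arrays share no sample with ZT12. The mean difference over the other times was called for 2119 genes (15.2%), 1146 (8.21%) higher and 973 (6.97%) lower. Of the 759 genes called at ZT12, 723 (95.3%) had the same sign there, against 8904 of the 13197 genes not called at ZT12 (67.5%). Of the 759, 530 (69.8%) were also called there with that sign, and 0 of the 36 genes of opposite sign were. Taken singly, each with 3 arrays per diet, the other times called 993 (7.12%) genes at ZT0, 515 (3.69%) at ZT4, 108 (0.774%) at ZT8, 310 (2.22%) at ZT16 and 285 (2.04%) at ZT20. By direction, 470 (3.37%) were higher and 523 (3.75%) lower at ZT0, 319 (2.29%) and 196 (1.40%) at ZT4, 39 (0.279%) and 69 (0.494%) at ZT8, 146 (1.05%) and 164 (1.18%) at ZT16, and 173 (1.24%) and 112 (0.803%) at ZT20. Of the 759, 330 were called at none of them and 20 at all 5 with the same sign. A missed call at a single time does not show that the difference was missing there, and the test of the difference between times is given next.

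**Figure D2:**
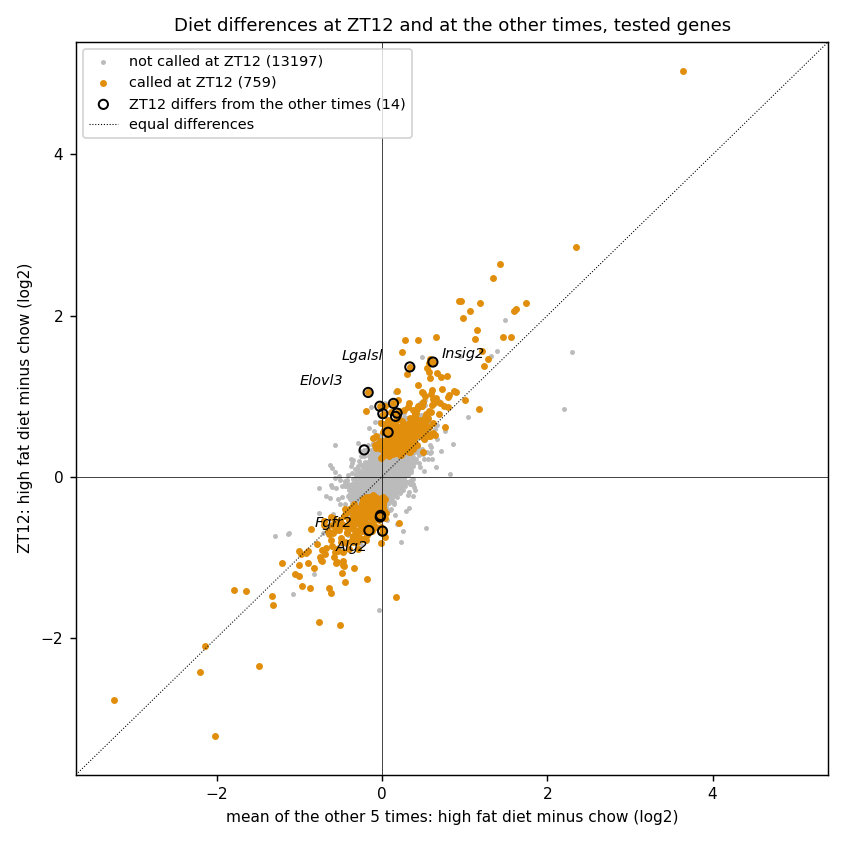
Each point is a tested gene: the vertical axis is the difference between the diets at ZT12 (log2) and the horizontal axis the mean difference at the other 5 times (log2). Orange points are the 759 genes called at ZT12, and 14 black circles mark genes whose ZT12 difference differed from the other times, among them Elovl3 and Alg2 away from the dotted line of equal differences.

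The ZT12 difference differed from the mean of the other 5 differences for 14 genes (0.100%), 10 higher (0.0717%) and 4 lower (0.0287%), while 924 genes had an unadjusted p under 0.05. The same contrast called 31 genes (0.222%) for ZT0, 6 (0.0430%) for ZT4, 13 (0.0931%) for ZT8, 0 (0.00%) for ZT16, where limma gave 825 at an unadjusted p under 0.05, and 1 (0.00717%) for ZT20. These contrasts share arrays. By these calls ZT12 was neither the time with the most nor with the fewest such genes. At an unadjusted p under 0.05 limma gave 1975 genes for ZT0, 1116 for ZT4, 1502 for ZT8 and 1360 for ZT20. Each of these lay above the 924 for ZT12, so the order of the times depends on the threshold. With 1 array left out, 4 of the 14 were still called without chow array 2, 5 without high fat diet array 2, 7 without chow array 1, 8 without high fat diet array 1 or 3, and 10 without chow array 3.

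Elovl3, which elongates very long chain fatty acids, gave the smallest p of this contrast. It had 11.75, 11.50 and 11.49 on high fat diet at ZT12, against 10.47, 10.56 and 10.58 on chow, a difference of 1.05 ± 0.15. At ZT4 and ZT8 the sign was the other way, with called differences of -0.78 and -0.85, and at ZT16 it was 0.62. The mean of the other 5 was -0.17, and ZT12 differed from it by 1.21 (limma adjusted p = 0.000279). Insig2, which holds SREBP in the endoplasmic reticulum, had 11.51, 11.71 and 11.59 on high fat diet and 10.14, 10.06 and 10.34 on chow, a difference of 1.42 ± 0.14. It was also higher at ZT16 (1.11) and ZT20 (0.95), and ZT12 differed from the mean of the others by 0.81 (adjusted p = 0.0176). Neither gene's diets overlapped at ZT12, which follows in part from choosing called genes (11.7% of all tested genes separated in this direction). The Insig2 contrast lost its call without high fat diet array 2 or 3 or chow array 1 or 2.

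Tjp3, a tight junction scaffold, had 8.31, 8.37 and 8.23 on high fat diet and 7.45, 7.28 and 7.44 on chow (0.91 ± 0.10), against a mean of 0.14 at the other times (adjusted p of the contrast = 0.000583). Lgalsl, a galectin-like protein, had 9.56, 8.996 and 9.07 on high fat diet and 7.93, 7.48 and 8.13 on chow (1.36 ± 0.15), against 0.34 (adjusted p = 0.00208). Denn2b, a DENN domain protein of the kind that activates Rab GTPases, differed by 0.87 ± 0.14 at ZT12 and by -0.03 at the other times (adjusted p = 0.00485). Without chow array 2 the Denn2b contrast had an adjusted p of 0.0711. These 3 genes, like Elovl3, had chow levels at ZT12 below every other chow group mean. The other 5 of the 10 higher genes had smaller contrasts. Pnkd differed by 0.78 at ZT12 and 0.01 at the other times, the E3 ligase gene Trim2 by 0.75 and 0.17, Paqr9 by 0.79 and 0.18, and Fpgs, which adds glutamates to folate, by 0.55 and 0.08. Hacl1, a peroxisomal enzyme of alpha-oxidation, differed by 0.33 at ZT12, which was not called (adjusted p = 0.0525), and by -0.21 at the other times. Each of these 5 contrasts lost its call without at least 4 of the 6 ZT12 arrays, taken 1 at a time, with adjusted p up to 0.299.

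All 10 genes had their lowest mean at ZT8 on high fat diet and at ZT12 on chow. Over all tested genes, 583 (4.18%) had that combination. Elovl3 averaged 10.45 ± 0.18 at ZT8, 11.58 ± 0.15 at ZT12 and 12.49 ± 0.18 at ZT16 on high fat diet, against 11.31 ± 0.31, 10.54 ± 0.06 and 11.87 ± 0.10 at those times on chow (SD, n = 3 each). Tjp3 averaged 8.07 ± 0.25, 8.30 ± 0.07 and 8.82 ± 0.05 on high fat diet, against 7.93 ± 0.04, 7.39 ± 0.10 and 8.65 ± 0.09 on chow. The genes were picked for a high difference at ZT12, which favours a low chow mean there, so the count is a description.

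**Figure D3:**
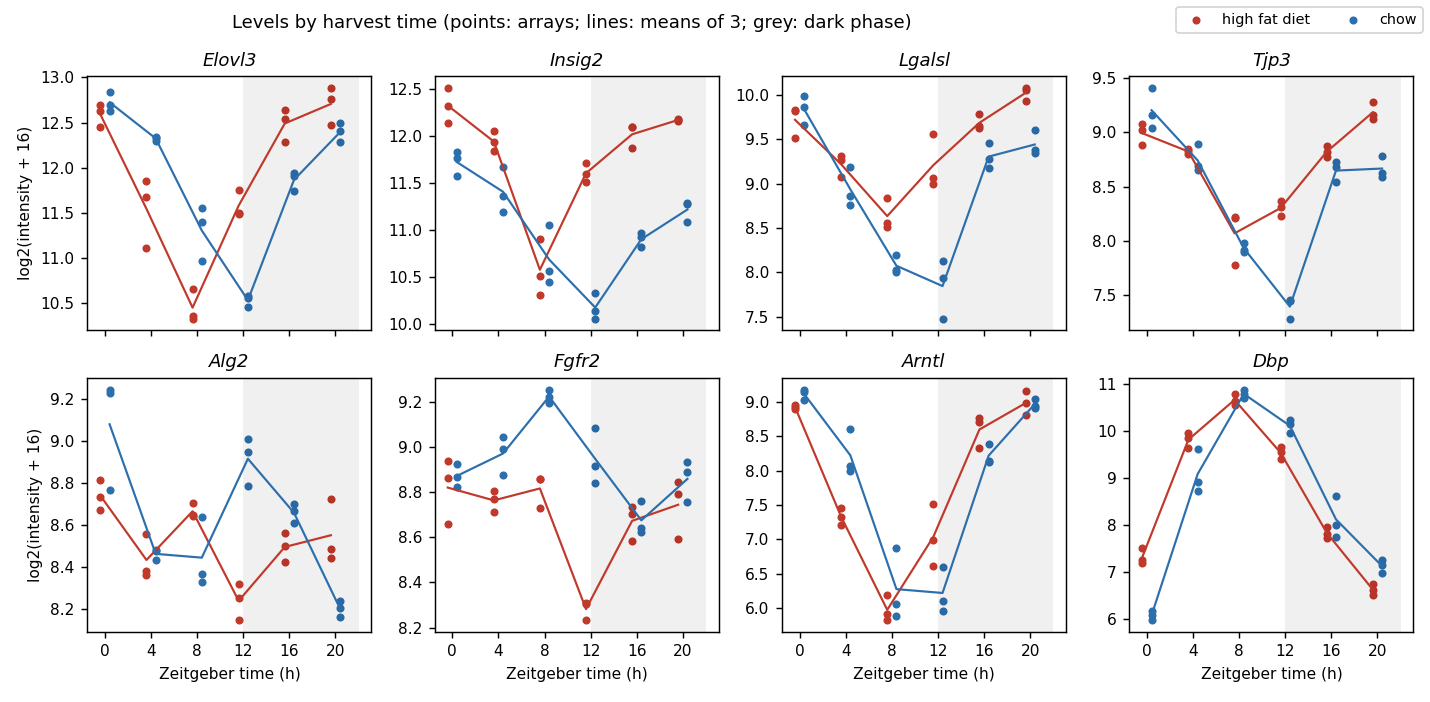
Levels of 8 genes in every array, log2(intensity + 16) against Zeitgeber time in hours, with red for high fat diet, blue for chow, lines through the means of 3 arrays and the dark phase in grey. Elovl3, Insig2, Lgalsl and Tjp3 turn upward after ZT8 on high fat diet and after ZT12 on chow, and Alg2 and Fgfr2 have their lowest high fat diet mean at ZT12.

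The ZT12 difference lay below that at the other times for 4 genes. Alg2, a mannosyltransferase that builds the N-glycan precursor, had 8.25, 8.32 and 8.15 on high fat diet and 8.95, 9.01 and 8.79 on chow, a difference of -0.68 ± 0.10. Its mean difference at the other times was 0.01 (adjusted p of the contrast = 0.00254). Fgfr2, a fibroblast growth factor receptor, had 8.30, 8.23 and 8.31 on high fat diet and 8.92, 9.09 and 8.84 on chow, a difference of -0.67 ± 0.08 against -0.16 at the other times (adjusted p = 0.00645). Its contrast lost the call without high fat diet array 2 or chow array 2 (adjusted p up to 0.126). Atg13, which starts autophagy, differed by -0.50 at ZT12 and -0.02 at the other times, and Txndc11, a thioredoxin domain protein, by -0.48 and -0.02. Both contrasts lost their call without any 1 of the 6 arrays. Of the 4 genes 3 had their lowest high fat diet mean at ZT12, and Txndc11 had it at ZT4.

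Against each other time singly, the ZT12 difference differed for 32 genes (0.229%) at ZT0, 15 (0.107%) at ZT4, 19 (0.136%) at ZT8, 1 (0.00717%) at ZT16 and 13 (0.0931%) at ZT20. Elovl3 had the smallest p against both ZT4 (1.82) and ZT8 (1.90), Tjp3 against ZT0 (1.12) and Alg2 against ZT20 (-1.03). Fgfr2 was the gene called against ZT16 (-0.67, adjusted p = 0.0332). At unadjusted p under 0.05 the ZT16 contrast held 721 genes. Of the 13 genes against ZT20, 12 had the lower difference at ZT12.

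The core clock was read gene by gene. Of 16 tested members, 2 were higher and 1 lower at ZT12, where 5.44% of all genes were called in either direction. Arntl had 7.51, 6.99 and 6.62 on high fat diet, against 6.10, 5.96 and 6.61 on chow, a difference of 0.81 ± 0.20 (limma adjusted p = 0.0152). High fat diet array 3 and chow array 3 nearly met, at 6.62 and 6.61. Clock, its partner, had 9.59, 9.48 and 9.49 on high fat diet and 9.12, 9.07 and 9.30 on chow (0.35 ± 0.10, adjusted p = 0.0287). Bhlhe41, a repressor of the same sites, had 6.20, 6.30 and 6.43 on high fat diet and 7.15, 7.33 and 6.87 on chow (-0.81 ± 0.17, adjusted p = 0.00346). The Arntl call was lost without high fat diet array 1 or chow array 1 or 2 (differences from 0.58 to 1.03) and the Clock call without any array but chow array 3 (0.31 to 0.42).

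Arntl differed the other way earlier in the day, by -0.89 at ZT4 (adjusted p = 0.0088) and by -0.30 at ZT8, where it was not called. Its mean was 5.98 ± 0.19 at ZT8, 7.04 ± 0.45 at ZT12 and 8.60 ± 0.24 at ZT16 on high fat diet, against 6.28 ± 0.53, 6.22 ± 0.34 and 8.22 ± 0.14 on chow (SD, n = 3 each). ZT12 differed from the mean of the other times by 1.01, which did not pass (adjusted p = 0.0715). Among the members that were not called at ZT12 were the negative limb genes Nr1d1 (-0.47 ± 0.26), Nr1d2 (-0.25), Per1 (-0.40), Per2 (0.11), Per3 (-0.24), Cry1 (0.21), Cry2 (-0.20) and Ciart (-0.43). Nr1d1 had 8.60, 8.74 and 8.93 on high fat diet and 9.26, 9.09 and 9.34 on chow (limma adjusted p = 0.359), with no overlap between the diets. Of all tested genes 13.0% separated in this direction. Bhlhe40 (0.23), Rora (0.08), Csnk1d (-0.08), Csnk1e (0.03) and Fbxl21 (-0.13) were not called either. For Csnk1e the sign turned under median centring.

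Among 14 tested clock output genes, 2 were higher and 2 lower at ZT12, where 2.47% of all genes were higher and 2.97% lower. Dbp, a PAR bZIP factor driven by ARNTL and CLOCK, had 9.39, 9.55 and 9.65 on high fat diet, against 10.14, 10.23 and 9.94 on chow, a difference of -0.58 ± 0.17 (adjusted p = 0.039). It was higher on high fat diet at ZT0 (1.24) and ZT4 (0.73), both called. ZT12 differed from the mean of the other times by -0.79 (adjusted p = 0.0885), which did not pass. Upp2, a uridine phosphorylase, had 11.46, 11.46 and 11.51 on high fat diet and 12.10, 12.20 and 12.12 on chow (-0.66 ± 0.13). Hlf, a relative of Dbp, had 9.60, 9.51 and 9.55 on high fat diet and 9.35, 9.13 and 9.21 on chow (0.32 ± 0.10, adjusted p = 0.0411), and Elovl3 is described above. The Dbp and Hlf calls were each lost without 5 of the 6 arrays, among them chow array 2 and all high fat diet arrays.

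Many interferon-stimulated genes were higher on high fat diet. Of 27 tested members 15 were called higher and 0 lower, where 2.47% of all genes were higher. Of the 27 differences 23 were positive and 4 negative, with a median of 0.46 against 0.003 over all genes. At the other times 10 members were called higher at ZT0, 6 at ZT4, 1 at ZT8, 2 at ZT16 and 3 at ZT20. Of all genes 3.37% were higher at ZT0, 2.29% at ZT4, 0.279% at ZT8, 1.05% at ZT16 and 1.24% at ZT20. In the mean of the other 5 times, a fit with more arrays, 20 members were higher and 1 lower (median 0.26). In that mean 8.21% of all genes were higher and 6.97% lower. By the test 0 members differed between ZT12 and the mean of the other times. Many of these genes are known to be driven through the interferon-stimulated response element, so the 250 bases upstream of the start of 2 of them are shown, from RefSeq on GRCm38.p6 and in gene direction, with matches to a 12-letter form of that element on either strand in capitals.
Ifit1 (chr19:34640639-34640888, + strand): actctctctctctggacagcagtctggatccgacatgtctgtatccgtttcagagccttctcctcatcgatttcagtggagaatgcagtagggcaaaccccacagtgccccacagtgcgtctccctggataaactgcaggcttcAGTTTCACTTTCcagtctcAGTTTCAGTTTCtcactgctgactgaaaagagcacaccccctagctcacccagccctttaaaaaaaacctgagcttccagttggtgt
Gbp3 (chr3:142559794-142560043, + strand): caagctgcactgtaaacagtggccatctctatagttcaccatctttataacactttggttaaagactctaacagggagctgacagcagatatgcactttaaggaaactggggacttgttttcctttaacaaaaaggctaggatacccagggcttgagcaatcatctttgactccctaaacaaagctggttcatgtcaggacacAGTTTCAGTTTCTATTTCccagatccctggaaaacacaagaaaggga
Both windows hold 2 matches. The 2 matches of Gbp3 overlap. Of 11085 tested genes with a promoter in the table, 28 (0.253%) held this motif, and of 21 interferon-stimulated genes 9 did, 6 of the 11 called at ZT12 and 3 of the 10 not called.

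Gbp3, a guanylate-binding protein of cell defence, had 8.32, 7.74 and 7.62 on high fat diet, against 6.87, 6.62 and 6.52 on chow, a difference of 1.22 ± 0.18 (limma adjusted p = 5.73e-05). Ifit1, which binds viral RNA caps, had 8.51, 8.64 and 8.56 on high fat diet and 7.74, 7.34 and 7.36 on chow (1.09 ± 0.18). Ifit3 had 9.50, 9.18 and 9.06 on high fat diet and 8.65, 8.28 and 8.17 on chow (0.88 ± 0.17), and the antiviral enzyme gene Rsad2 had 7.58, 8.04 and 7.83 on high fat diet and 6.97, 6.61 and 6.80 on chow (1.02 ± 0.20). None of the 4 overlapped between diets, which follows in part from choosing called members. Of all tested genes 11.7% separated in this direction. All 4 kept their calls when any 1 array was left out. The count of 15 was 8, 11 and 9 without high fat diet array 1, 2 or 3, and 13, 7 and 9 without chow array 1, 2 or 3.

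Of 20 tested markers of Kupffer cells and macrophages 2 were called higher at ZT12 and 0 lower, where 2.47% of all genes were higher. The median difference was 0.48, 18 differences were positive, and 10 members were called higher at ZT0 (3.37% of all genes). The count of 2 was 5 without high fat diet array 2 or chow array 1 and 1 without any other array, 4 after quantile normalization and 1 under median centring. The pore protein gene Mpeg1 had 9.89, 9.01 and 9.24 on high fat diet and 8.72, 8.32 and 8.32 on chow (0.92 ± 0.18, adjusted p = 0.00137). Lgals3, a galectin of activated macrophages, differed by 0.47 ± 0.14 (adjusted p = 0.0387), a call lost without 5 of the 6 arrays. Clec4f, a Kupffer cell receptor, lay between 9.07 and 9.56 on high fat diet and between 8.34 and 9.16 on chow and was not called (adjusted p = 0.0838). Vsig4 (0.91), Adgre1 (0.72) and Cd5l (0.70) were not called either. The summed intensity of the list ran from 5996 to 9000 on high fat diet and from 3945 to 6588 on chow, so the groups overlapped. Of 9 tested T, NK and B cell markers 1 was called, the chemokine gene Ccl5 (0.61 ± 0.15, adjusted p = 0.0168, lost without high fat diet array 1 or chow array 2), and the list's sum ran from 1004 to 1258 on high fat diet and from 822 to 907 on chow. The part of these cells in the interferon, acute phase and replication results was not tested.

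Of 29 tested cell cycle and DNA replication genes 7 were higher on high fat diet and 0 lower, where 2.47% of all genes were higher. Of the 29 differences 20 were positive and 9 negative, and all 7 called genes code for the MCM helicase or for ribonucleotide reductase. Mcm4 had 7.33, 7.60 and 7.22 on high fat diet and 6.76, 6.43 and 6.94 on chow (0.68 ± 0.13, adjusted p = 0.00188). Mcm2 had 7.03, 7.74 and 7.39 on high fat diet and 6.63, 6.92 and 6.92 on chow (0.56 ± 0.12). Rrm1, the large subunit of ribonucleotide reductase, had 7.86, 8.12 and 8.03 on high fat diet and 7.41, 7.15 and 7.44 on chow (0.67 ± 0.13). Rrm2, the small subunit, had 7.84, 8.24 and 8.44 on high fat diet and 7.34, 6.93 and 7.08 on chow (1.05 ± 0.23). The groups did not overlap for these 4 genes, which follows in part from choosing called members (11.7% of all tested genes separated in this direction). High fat diet array 2 was the highest for both Mcm genes, and without it the list had 3 called members and Mcm2 was lost (adjusted p = 0.069). The count was 4 without chow array 2 and between 5 and 7 without any other array.

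The remaining called members were Mcm3 (0.48), Mcm5 (0.48 ± 0.12, adjusted p = 0.0182) and Mcm6 (0.80 ± 0.20, adjusted p = 0.0159), which are named here after their values were seen. At ZT0 4 members of the list were called higher, and 0 at ZT4, ZT8, ZT16 and ZT20. Of all genes 3.37% were higher at ZT0, 2.29% at ZT4, 0.279% at ZT8, 1.05% at ZT16 and 1.24% at ZT20. No member differed between ZT12 and the mean of the other times by the test (list median 0.15 at ZT12, against 0.07 for the mean of the others). MCM genes are classic targets of E2F factors. The 250 bases upstream of the 2 called members with a match to TTTGGCGC are shown, in gene direction from RefSeq on GRCm38.p6, with matches on either strand in capitals.
Mcm6 (chr1:128359706-128359955, - strand): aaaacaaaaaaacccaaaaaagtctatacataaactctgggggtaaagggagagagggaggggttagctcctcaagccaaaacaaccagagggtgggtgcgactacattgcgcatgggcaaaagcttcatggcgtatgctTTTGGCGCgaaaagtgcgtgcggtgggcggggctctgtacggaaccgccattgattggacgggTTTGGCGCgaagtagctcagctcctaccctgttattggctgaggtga
Mcm5 (chr8:75109259-75109508, + strand): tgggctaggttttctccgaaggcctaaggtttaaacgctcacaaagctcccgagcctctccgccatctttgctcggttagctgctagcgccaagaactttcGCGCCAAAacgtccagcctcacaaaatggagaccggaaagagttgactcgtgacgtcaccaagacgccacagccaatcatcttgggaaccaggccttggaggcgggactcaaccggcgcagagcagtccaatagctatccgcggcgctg
The Mcm6 window holds 2 matches and the Mcm5 window 1, on the opposite strand. This motif was found in 95 of 11085 promoters (0.857%) and in 2 of the 23 list members with a promoter, so most of the list has no match to these letters in this window.

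Some protein folding genes of the endoplasmic reticulum were lower on high fat diet. Of 30 tested ER chaperone and unfolded protein response genes 7 were lower and 0 higher, where 2.97% of all genes were lower, and 29 of the 30 differences were negative (median -0.25). Dnajb9, a co-chaperone of BiP, had 10.11, 10.41 and 10.19 on high fat diet, against 10.79, 10.76 and 11.01 on chow (-0.62 ± 0.15, adjusted p = 0.00964). Manf, a folding factor, had 8.97, 9.03 and 8.56 on high fat diet and 9.25, 9.53 and 9.57 on chow (-0.59 ± 0.13). Selenos, of ER-associated degradation, differed by -0.46 ± 0.11, and Xbp1, the transcription factor of this response, by -0.46 ± 0.12. The diets did not overlap for any of the 4, which follows in part from choosing called members (13.0% of all tested genes separated in this direction). The list count was 3 without high fat diet array 3, chow array 2 or chow array 3, 4 without high fat diet array 1, 6 without high fat diet array 2 and 5 without chow array 1. Xbp1 lost its call without high fat diet array 1 or 2 or chow array 2, Manf without high fat diet array 3 (adjusted p = 0.0504) and Dnajb9 without chow array 3 (adjusted p = 0.0567).

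At ZT16 the same list also had 7 lower members, with a median of -0.31, while ZT4 had 1 and ZT0, ZT8 and ZT20 had 0. Of all genes 1.18% were lower at ZT16, 1.40% at ZT4, 3.75% at ZT0, 0.494% at ZT8 and 0.803% at ZT20. The difference of Dnajb9 at ZT12 minus the mean of the other times was -0.60 (adjusted p = 0.16), and no member passed that test. Hspa5, which codes for the chaperone BiP, had 11.50, 11.70 and 11.41 on high fat diet at ZT12 and 11.85, 11.94 and 11.98 on chow (-0.38 ± 0.11, adjusted p = 0.0418), and it is named here after its values were seen. Its promoter is the textbook example of the ER stress response element, shown in capitals in the 250 bases upstream of its start, from RefSeq on GRCm38.p6.
Hspa5 (chr2:34771840-34772089, + strand): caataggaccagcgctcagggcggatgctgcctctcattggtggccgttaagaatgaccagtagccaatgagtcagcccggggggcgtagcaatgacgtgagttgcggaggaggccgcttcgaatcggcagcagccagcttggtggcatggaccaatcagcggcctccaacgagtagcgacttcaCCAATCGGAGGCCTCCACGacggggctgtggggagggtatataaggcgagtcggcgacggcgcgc
The 19-letter ER stress response element, searched on both strands, was found in 17 of 11085 promoters (0.153%) and in 10 of the 24 list members with a promoter. Of those 10, 2 were called at ZT12 and 8 were not (2 of the 5 called members with a promoter and 8 of the 19 uncalled members held it).

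Of 38 tested ribosome biogenesis genes 13 were lower on high fat diet and 0 higher (median -0.29), where 2.97% of all genes were lower. Of 32 tested ribosomal protein genes 7 were lower and 0 higher, with all 32 differences negative (median -0.32), and under median centring 11 were lower. Nop56, of small nucleolar ribonucleoproteins, had 8.95, 8.75 and 9.10 on high fat diet and 9.39, 9.51 and 9.49 on chow (-0.53 ± 0.10, adjusted p = 0.00082). Gnl3, a nucleolar GTP-binding protein, had 8.05, 8.02 and 8.34 on high fat diet and 8.73, 8.82 and 8.87 on chow (-0.67 ± 0.12). Rrn3, an RNA polymerase I initiation factor, differed by -0.59 ± 0.12 and Mybbp1a by -0.45 ± 0.10. These 4 kept their calls without any 1 array. Rps4x had 10.42, 10.51 and 10.42 on high fat diet and 10.86, 10.87 and 10.82 on chow (-0.40 ± 0.10), and Rpl13 (-0.43 ± 0.11), Rps3 (-0.39 ± 0.10) and Rps14 (-0.36 ± 0.09) were close to it. Without chow array 2, 5 biogenesis genes and 0 ribosomal protein genes were called, and without chow array 1 9 and 1. Without high fat diet array 2 the counts were 7 and 3, and without high fat diet array 3 they were 9 and 3.

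Members of both lists were also lower at other times: 12 biogenesis genes and 6 ribosomal protein genes were called lower at ZT0, against 0 of either at ZT8 and ZT20. Fewer genes of any kind were called lower at those 2 times (0.494% at ZT8 and 0.803% at ZT20, against 3.75% at ZT0). In the mean of the other 5 times 14 biogenesis genes and 20 ribosomal protein genes were lower and 0 higher, where 6.97% of all genes were lower. Ribosomal protein probe sets can share signal with the many processed pseudogenes of this family. In the proteasome list 2 of 31 members were lower, Psmb4 (-0.43 ± 0.12) and Psmb6 (-0.44 ± 0.12), and in the oxidative phosphorylation list 1 of 41, Atp5o (-0.31 ± 0.09), where 2.97% of all genes were lower. The proteasome count was 4 under median centring, and the oxidative phosphorylation count was 0 after quantile normalization. These 3 calls were lost without 3 or more of the 6 arrays, taken singly.

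**Figure D4:**
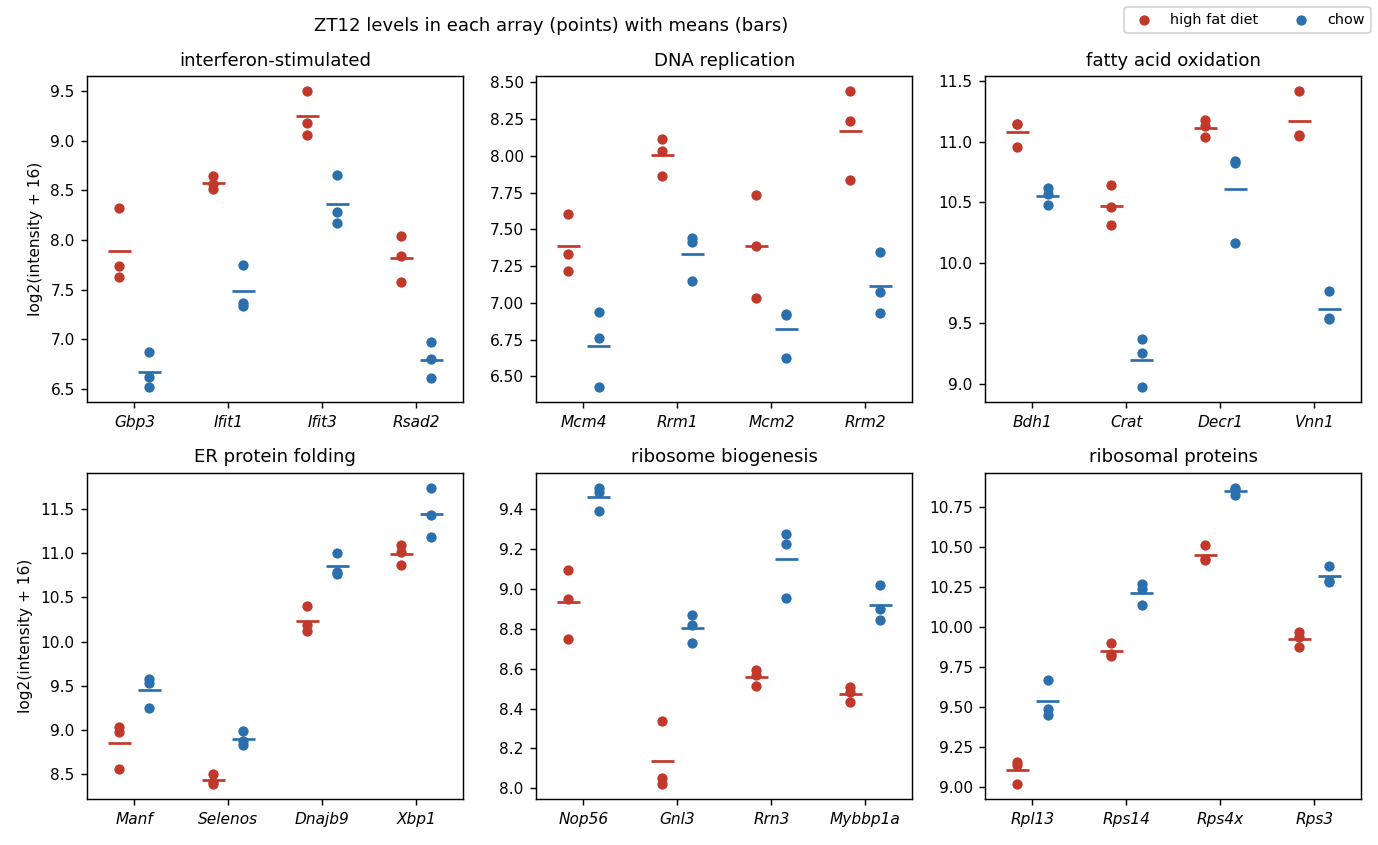
Levels at ZT12 in each of the 6 arrays, log2(intensity + 16), for the members with the smallest p of 6 gene lists, with red for high fat diet, blue for chow and bars for the means of 3 arrays. High fat diet arrays lie above chow arrays for each gene of the interferon, DNA replication and fatty acid oxidation panels and below them for each gene of the other 3 panels, which follows from choosing called members.

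Of 39 tested PPARA targets and fatty acid oxidation genes 12 were higher on high fat diet and 0 lower, where 2.47% of all genes were higher, and the count was 7 under median centring. The median difference was 0.30, and in the mean of the other times 23 were higher and 0 lower, with a median of 0.20. In that mean 8.21% of all genes were higher and 6.97% lower. Crat, which moves short acyl groups to carnitine, had 10.31, 10.46 and 10.64 on high fat diet, against 9.25, 8.97 and 9.37 on chow (1.27 ± 0.23, adjusted p = 0.000616). Vnn1, a pantetheinase and PPARA target, had 11.05, 11.42 and 11.05 on high fat diet and 9.53, 9.76 and 9.54 on chow (1.56 ± 0.36). Bdh1, of ketone body metabolism, had 10.96, 11.14 and 11.15 on high fat diet and 10.62, 10.57 and 10.47 on chow (0.53 ± 0.09). Decr1, of unsaturated fatty acid oxidation, differed by 0.51 ± 0.12, but by 0.28 and with no call without chow array 1 (adjusted p = 0.0997). Without high fat diet array 2 or 3 the list had 4 or 6 called members, without chow array 1, 2 or 3 it had 7, 5 or 7, and without high fat diet array 1 it had 12.

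Lipid droplet and fatty acid uptake genes gave 9 higher and 2 lower of 26 tested, with a median of 0.35. Over all genes 2.47% were higher and 2.97% lower. Higher members at ZT0, ZT4, ZT8, ZT16 and ZT20 numbered 3, 9, 4, 3 and 6, where 3.37%, 2.29%, 0.279%, 1.05% and 1.24% of all genes were higher. The list median at ZT4 was 0.42. In the mean of the other 5 times 14 were higher and 3 lower (median 0.17), where 8.21% and 6.97% of all genes were. No member differed between ZT12 and that mean by the test. Plin2, which coats lipid droplets, had 11.62, 11.82 and 11.97 on high fat diet and 10.97, 10.89 and 10.91 on chow (0.88 ± 0.10, adjusted p = 2.07e-06). Fabp2, an intestinal-type fatty acid binding protein, had 11.16, 11.04 and 11.10 on high fat diet and 9.73, 9.57 and 9.87 on chow (1.37 ± 0.14). Mgll, a monoglyceride lipase, differed by 0.64 ± 0.11, and the Cidec and Apoa4 values are given above. Pnpla2, the main triglyceride lipase, was lower, at 9.92, 9.75 and 9.94 on high fat diet and 10.36, 10.52 and 10.16 on chow (-0.48 ± 0.12, adjusted p = 0.0159), and lost its call without high fat diet array 2 or chow array 2.

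Fatty acid and triglyceride synthesis genes gave 8 higher and 0 lower of 30 tested, where 2.47% of all genes were higher and 2.97% lower. Higher members at ZT0, ZT4, ZT8, ZT16 and ZT20 numbered 4, 7, 1, 4 and 2, where 3.37%, 2.29%, 0.279%, 1.05% and 1.24% of all genes were higher. The list median was 0.26 at both ZT4 and ZT12. In the mean of the other 5 times 9 were higher and 4 lower (median 0.09), where 8.21% and 6.97% of all genes were. Elovl5, an elongase of polyunsaturated fatty acids, had 12.51, 12.48 and 12.63 on high fat diet and 11.55, 11.57 and 11.48 on chow (1.00 ± 0.20, adjusted p = 0.00188). The desaturase genes Fads1 and Fads2 differed by 0.42 ± 0.10 and 0.41 ± 0.09. Without high fat diet array 3 or chow array 2 the count was 4. Of 23 tested cholesterol synthesis genes 1 was lower, Insig1 (-0.48 ± 0.14, adjusted p = 0.0434, lost without 5 of the 6 arrays), while 13 were lower in the mean of the other times, a fit with more arrays. In that mean 6.97% of all genes were lower. No member differed between ZT12 and the mean of the others.

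Of 34 tested CAR and PXR targets and other drug metabolism genes 15 were lower and 1 higher, which was Cyp2b9, where 2.97% of all genes were lower (list median -0.22). Without high fat diet array 3, chow array 2 or chow array 3 the count of lower genes was 9, and without any other array 11. Between 8 and 9 were called lower at each of the other 5 times, where between 0.494% (ZT8) and 3.75% (ZT0) of all genes were lower. Of 32 tested glutathione and NRF2 target genes 5 were lower and 0 higher. Gsta4, a transferase for lipid peroxidation products, had 9.96, 9.93 and 9.41 on high fat diet and 10.95, 10.90 and 10.87 on chow (-1.14 ± 0.16, adjusted p = 3.17e-05). Gstp1 had 12.28, 12.50 and 12.25 on high fat diet and 13.13, 13.20 and 13.14 on chow (-0.81 ± 0.16). Gstt2 differed by -0.67 ± 0.14 and Gstm3 by -0.58 ± 0.15, and Gstm probe sets can share signal. The list had 3 lower members without high fat diet array 1 or 3 or chow array 2.

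Sex-biased liver genes moved in both directions, 4 higher and 8 lower of 26 tested, with a median of -0.28 at ZT12 and -0.08 in the mean of the other times. Over all genes 2.47% were higher and 2.97% lower at ZT12. The male-biased genes Cyp4a12a (11.58, 11.62 and 11.43 on high fat diet, against 12.36, 12.55 and 12.59 on chow) and Cyp4a12b differed by -0.96 ± 0.11 and -1.05 ± 0.12, and their probe sets are nearly identical in sequence. The female-biased Cyp2b9 and Cyp17a1 were higher. Against that split, the male-biased Elovl3 was higher (1.05) and the female-biased Cyp3a16 (-1.48) and Cyp3a44 were lower. The other higher member was Cyp2d40 (0.87), named after its values were seen. Bile acid genes gave 1 higher and 4 lower of 27 tested, against 2.47% and 2.97% of all genes. Abcb4, which exports phosphatidylcholine into bile, had 10.97, 11.17 and 11.10 on high fat diet and 10.75, 10.71 and 10.76 on chow (0.34 ± 0.09). Abcb11, the bile salt export pump, had 11.22, 11.09 and 10.98 on high fat diet and 11.45, 11.59 and 11.46 on chow (-0.40 ± 0.11), and Slc27a5, which conjugates bile acids to CoA, differed by -0.30 ± 0.08. All 3 lost their calls without 3 or 4 of the arrays taken singly, chow array 2 among them, and without it 0 bile acid genes were called in either direction.

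Sugar and insulin genes changed in small numbers. Of 22 tested glycolysis, glycogen and fructose genes 5 were higher and 1 lower, where 2.47% of all genes were higher and 2.97% lower. Under median centring 3 were higher. Khk, which phosphorylates fructose, had 11.61, 11.58 and 11.42 on high fat diet and 11.01, 10.75 and 10.79 on chow (0.69 ± 0.13, adjusted p = 0.00188). Gckr, the glucokinase regulator, had 10.63, 10.58 and 10.68 on high fat diet and 10.12, 10.11 and 10.04 on chow (0.54 ± 0.09), and Ldha differed by 0.42 ± 0.11. Pfkfb3, which makes the activator fructose 2,6-bisphosphate, was lower, at 7.72, 7.72 and 7.84 on high fat diet and 8.77, 9.57 and 8.75 on chow (-1.27 ± 0.23, adjusted p = 0.000942). Its difference at ZT12 minus that at the other times was -1.10 (adjusted p = 0.0885), which did not pass. Without chow array 2 or 3 the list had 2 higher members, and without high fat diet array 2 or 3 it had 3.

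Of 30 tested insulin and growth factor signalling genes 3 were lower and 0 higher, where 2.97% of all genes were lower. Under median centring 5 were lower. Igfbp2, an IGF carrier, had 10.47, 9.54 and 9.77 on high fat diet and 11.28, 11.48 and 11.16 on chow (-1.38 ± 0.24, adjusted p = 0.000581). Irs2, an insulin receptor substrate, had 7.13, 6.99 and 7.12 on high fat diet and 7.60, 7.83 and 7.74 on chow (-0.64 ± 0.15) and lost its call without chow array 2 (adjusted p = 0.0542). Akt2, a kinase of insulin signalling, differed by -0.26 ± 0.08 (adjusted p = 0.0469), a call lost without any 1 array. Of 19 tested gluconeogenesis genes 0 were called by limma, where 5.44% of all genes were called in either direction. The members with the smallest p were Klf15 (-0.40 ± 0.13, limma adjusted p = 0.0678) and Pcx (0.26 ± 0.09, adjusted p = 0.0854).

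Amino acid and cofactor lists held 2 to 5 lower members each, where 2.97% of all genes were lower. Of 35 urea cycle and amino acid genes 5 were lower, among them the histidine lyase gene Hal (-0.68 ± 0.12), the isovaleryl-CoA dehydrogenase gene Ivd (-0.40 ± 0.09), Csad, of taurine synthesis (-1.40 ± 0.30), and the decarboxylase gene Ddc (-0.59 ± 0.17). The one-carbon list had 2 lower of 23, Cth (-0.49 ± 0.11) and Aldh1l1 (-0.35 ± 0.09), and the NAD list 2 of 23, Afmid (-0.43 ± 0.10) and Acmsd (-0.92 ± 0.25). Csad had 8.15, 8.85 and 8.67 on high fat diet and 9.88, 9.73 and 10.26 on chow. The amino acid count was 3 without high fat diet array 3 or chow array 2 or 3. The Ddc and Acmsd calls were lost without 4 of the 6 arrays, and the Aldh1l1 call without high fat diet array 3 or chow array 2.

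Stress and signalling lists held few calls each, where 2.47% of all genes were higher and 2.97% lower. Atf5 was higher by 0.52 ± 0.11, and Ppp1r15a, which ends the stress block of translation, had 7.00, 6.85 and 6.90 on high fat diet and 7.32, 7.48 and 7.37 on chow (-0.47 ± 0.10, adjusted p = 0.00311), in a list of 28 ATF4 and stress response genes with 1 higher and 2 lower. Sars, a seryl-tRNA synthetase, was the other lower member (-0.27 ± 0.07, lost without 4 arrays). The heat shock list had 1 higher of 23, the co-chaperone Fkbp4 (0.31 ± 0.08, lost without chow array 1 or 2), and the TCA list 1 of 21, Pdha1 (0.29 ± 0.09, lost without 5 arrays), where 2.47% of all genes were higher, and both counts were 0 under median centring. In the glucocorticoid and immediate early list 2 of 28 were higher, Lcn2 and Arrdc3 (1.05 ± 0.24, lost without chow array 2), and 1 was lower, Pnpla2. Acute phase and complement genes gave 3 higher (5 after quantile normalization) and 1 lower of 32: Saa2, Lcn2 and Il1rn (0.35 ± 0.10, lost without any 1 array) were higher and Orm1 was lower (-0.40 ± 0.11, and -0.26 with no call without high fat diet array 3). Of the 32 differences 13 were positive and 19 negative, with a median of -0.06, so the list as a whole was not higher.

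Markers of other cell types were mostly not called, where 5.44% of all genes were called in either direction. Of 21 sinusoidal endothelium, 26 stellate cell and matrix, 4 neutrophil, 3 bile duct and 2 red blood cell markers 0 passed in limma, with median differences of 0.02, 0.09, 0.07, 0.16 and -0.10. The smallest p-values among them belonged to Lyve1 (0.55 ± 0.36) and Tie1 (-0.21 ± 0.10) for endothelium, Hgf (0.39 ± 0.15) and Reln (0.23 ± 0.16) for stellate cells, Elane (0.20 ± 0.12) and Camp (0.12 ± 0.15) for neutrophils, Sox9 (0.16 ± 0.15) and Pkhd1 (0.18 ± 0.13) for bile ducts, and Alas2 (-0.33 ± 0.11) and Slc4a1 (0.13 ± 0.11) for red cells. The sign of Camp turned without high fat diet array 2. Among 6 adipocyte genes Cidec was higher and Pnpla2 lower, and among 8 muscle, pancreas and gut genes Fabp2 was higher. The hepatocyte genes with the smallest p were Cps1 (-0.23 ± 0.08, adjusted p = 0.0651) and Foxa3 (-0.45 ± 0.15, adjusted p = 0.0821), neither called.

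**Figure D5:**
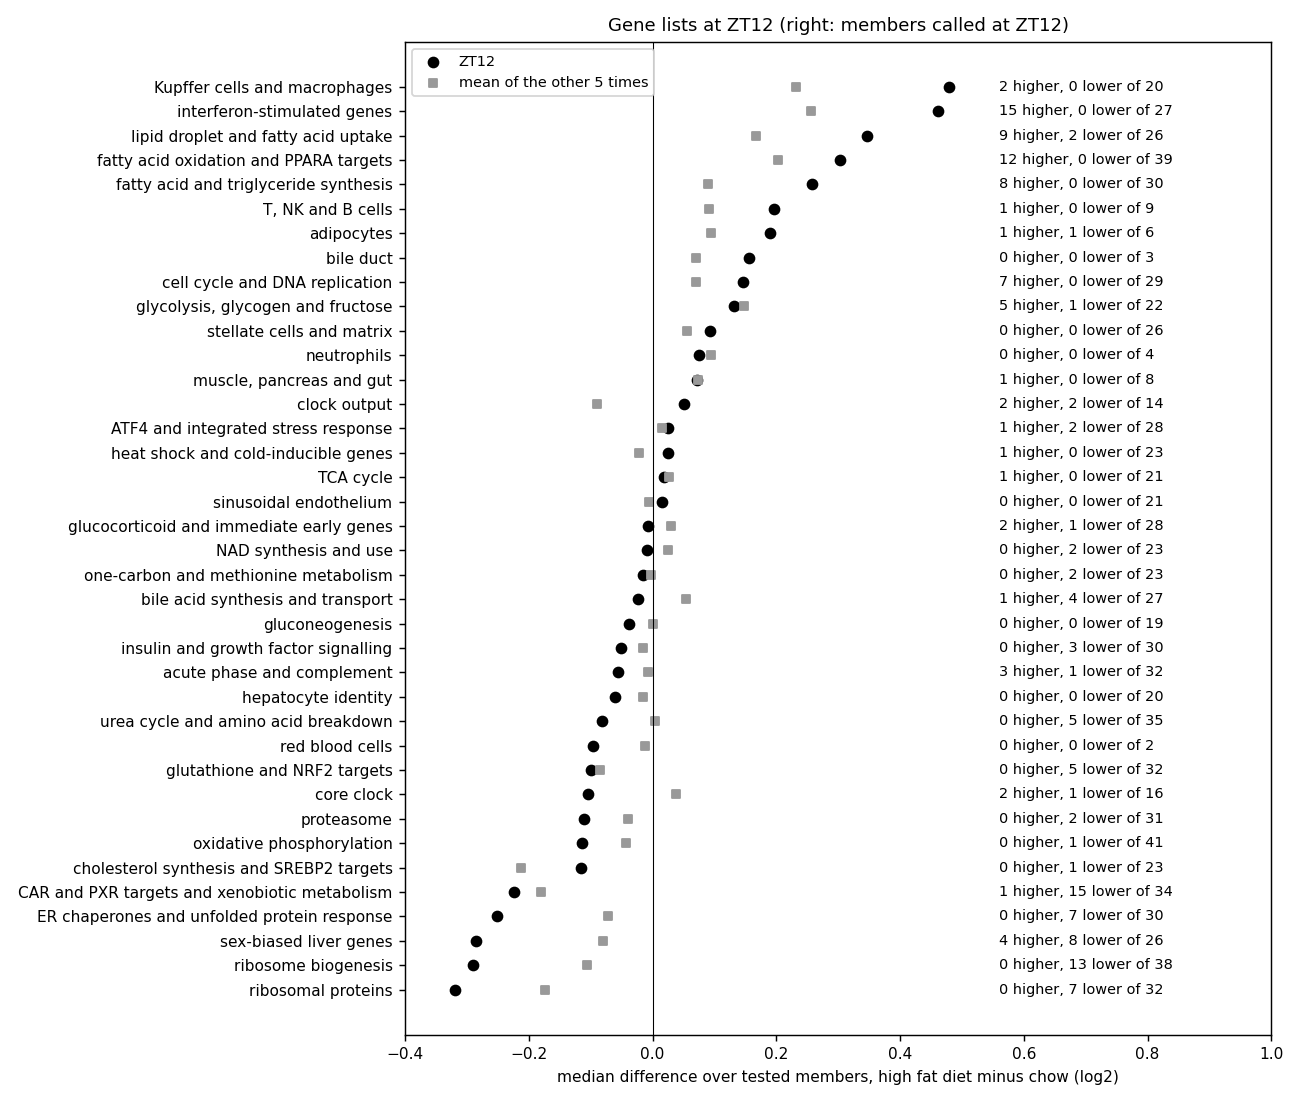
Median difference between the diets over the tested members of each gene list, high fat diet minus chow (log2), at ZT12 as black circles and for the mean of the other 5 times as grey squares, with the members called at ZT12 written at the right. Interferon-stimulated genes lie at 0.46 with 15 of 27 higher, and ribosomal proteins at -0.32 with 7 of 32 lower.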

How the data were processed

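Liver RNA of 36 samples was measured on Affymetrix gene arrays, and the 6 samples of ZT12 are described. Each of 35556 probe sets has a linear intensity per array, which the authors made with Affymetrix Expression Console 1.1.1 and PLIER 2.0, per the submitters' processing notes. How background and differences between arrays were corrected is not given in the sources used here, and the number of arrays limits the precision. Probe sets were named by the platform annotation (21789 with 1 gene, 1621 with several, 12146 unnamed). The brightest probe set stood for each of 19938 genes, and the 13956 above the 30th percentile of mean log2(intensity + 16) were tested. limma 3.58.1 in R 4.3.3 fitted 1 mean per diet and time, with 24 residual degrees of freedom. Contrasts were the diet difference at each time, the mean over the other 5 times, and ZT12 minus these. Calls used a Benjamini-Hochberg adjusted p under 0.05.

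The members and the 38 gene lists (852 of 990 symbols tested) were chosen with earlier results of these data known. Named were the 12 highest and 12 lowest ZT12 differences, up to 4 called members per list with the smallest p (or 2 where none was called), all core clock genes, the 10 most extreme contrasts each way against the other times, and called genes of opposite sign there. Fits were tested on simulated data. Alternatives covered scaling, filter, offset, probe set choice, weights, threshold, the replicate block and leaving out arrays or times. No 2 arrays of a group were identical, and same-numbered ZT12 arrays did not deviate together (r from -0.04 to 0.09), so numbers were not taken to pair samples.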

Additional observations from a re-analysis of the deposited data

Results flagged for a closer look

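A test of the difference between times found a diet effect at ZT12 unlike the mean of the other 5 times for 14 genes. The size of that difference (ZT12 minus the mean of the others, log2) was 1.21 for Elovl3, 1.03 for Lgalsl, 0.90 for Denn2b, 0.81 for Insig2, 0.77 for both Tjp3 and Pnkd, 0.61 for Paqr9, 0.58 for Trim2, 0.55 for Hacl1 and 0.48 for Fpgs. It was -0.68 for Alg2, -0.51 for Fgfr2, -0.48 for Atg13 and -0.46 for Txndc11. Elovl3, Tjp3, Lgalsl and Alg2 kept their calls without any 1 of the 6 ZT12 arrays, and the other 10 genes lost theirs without at least 1.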

How the results depend on the processing

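The main counts at ZT12 were 345 higher and 414 lower. They became 132 and 164 at adjusted p under 0.01, 141 and 114 with 1.5-fold required as well, 564 and 641 with array weights, and 183 higher under median centring. With 1 ZT12 array left out they ranged from 132 to 248 and from 159 to 329. Quantile normalization gave 463 and 456, the 6 ZT12 arrays alone 329 and 314, no filter 300 and 322, and leaving out the 4 arrays with the lowest weights, none from ZT12 and added after seeing the data, 458 and 558. The replicate block gave 354 and 433, 787 in all, of which 733 were among the 759.

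For ZT12 minus the mean of the other times (10 higher, 4 lower) the counts were 4 and 2 at 0.01, 27 and 10 with array weights, 5 and 1 under median centring, 6 higher without ZT0, 2 lower with no filter and 1 lower with 1.5-fold required. With 1 array left out they ranged from 3 to 12 and from 1 to 3.

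ZT12 against ZT0 gave 10 genes at 0.01, 82 with array weights, 50 after quantile normalization, 69 without the low-weight arrays and 10 to 27 with 1 array left out. Against ZT4 it gave 4, 42 and 25 in the first 3 of these settings, 9 with an offset of 1 and 4 to 22 with 1 array left out. Against ZT8 it gave 5, 822 and 37, then 10 under median centring, 33 without the low-weight arrays and 5 to 18 with 1 array left out. Against ZT16 the 1 gene became 0 at 0.01 and after quantile normalization, median centring, no filter and the replicate block, 8 with array weights, 5 without the low-weight arrays and 0 to 3 with 1 array left out. Against ZT20 it gave 1 at 0.01, 41 with array weights, 20 with the filter at the 50th percentile, 6 with no filter, 1 without the low-weight arrays and 1 to 11 with 1 array left out.

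The mean of the other times gave 653 higher and 606 lower at 0.01, 67 and 60 with 1.5-fold required, 1890 and 1578 with array weights and 609 higher under median centring. At 0.01, ZT0, ZT4, ZT8, ZT16 and ZT20 gave 204, 221, 52, 101 and 110 genes, and with 1.5-fold required 234, 224, 63, 117 and 128. Array weights gave 1082 at ZT4, 1716 at ZT8, 1336 at ZT16 and 821 at ZT20. Median centring gave 1806 at ZT0 and 191 at ZT16, and leaving out the low-weight arrays 165 at ZT8 and 142 at ZT20. The causes of these moves were not tested.

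Among named genes 4 values turned sign. For Camp the difference ranged from -0.0697 to 0.224 with 1 array left out and was negative without high fat diet replicate 2. For Csnk1e it ranged from -0.0619 to 0.114 and was negative without high fat diet replicate 3 or chow replicate 2, and it was -0.0201 under median centring. Of the other values of named genes 2779 kept direction and side of the threshold, 344 lost a call and 19 gained one. Dim genes are limited by signal over background, since the offset shrinks their differences.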

Other observations

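Genes that came close to passing the contrast between ZT12 and the other times, chosen here after their values were seen, include Cxcl9, a chemokine induced by interferon gamma. It had 10.37, 9.64 and 9.60 on high fat diet at ZT12, against 8.46, 7.92 and 8.15 on chow, a difference of 1.70 ± 0.28 (SE, limma adjusted p = 0.000352). Its ZT12 difference exceeded the mean of the other times by 1.42 (adjusted p = 0.0715).

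Some further genes of liver metabolism and signalling, chosen here after their values were seen, were not called at lights off. Rgs16, a regulator of G protein signalling, had 9.01, 9.53 and 10.61 on high fat diet and 8.86, 7.62 and 8.02 on chow at ZT12, with a difference of 1.55 ± 0.67 that was not called (adjusted p = 0.207). Mfsd2a, a lysophosphatidylcholine transporter, had 12.07, 11.93 and 12.24 on high fat diet and 11.46, 11.56 and 10.69 on chow (0.84 ± 0.43, adjusted p = 0.303), and Asns, which makes asparagine, differed by -0.74 ± 0.44 (adjusted p = 0.417). Cyp7a1, which starts classical bile acid synthesis, had 11.93, 11.81 and 11.75 on high fat diet and 11.95, 11.86 and 12.02 on chow and was not called (adjusted p = 0.811).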
